A study of Mus musculus with 6 samples.

Results

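A set of 10 genes of bacterial and viral sensing was followed in resting stromal cells of 2 mouse tissues: the Toll-like receptors Tlr2, Tlr3 and Tlr4, the intracellular receptor Nod1, the lipopolysaccharide-handling proteins Lbp, Cd14 and Ly96, the adaptor Myd88, and the secreted defence proteins Saa3 and Lcn2. They were taken by gene symbol, and all 10 were found among the 52997 symbols of the count table. The samples were mesenchymal stromal cells, the connective tissue cells of an organ, from 8-week-old C57BL/6 mice that the series describes as being at homeostasis. One group came from hindlimb skeletal muscle and the other from lymph nodes of 4 sites (inguinal, axillary, brachial and cervical) combined. Each tissue had 3 libraries of 1000 cells, sorted in a pair of passes, and no treatment or genetic change is named for either group. No source used here names the sorting markers. The series states 3 biological replicates a group, but 2 muscle samples have titles that share a number, and no label ties a library to an animal. The p-values below then measure the spread between libraries, which may be partly technical.

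Toll-like receptors are membrane proteins that recognise molecules shared by many microbes: Tlr4 senses lipopolysaccharide of Gram-negative bacteria, Tlr2 senses bacterial lipoproteins, and Tlr3 senses double-stranded RNA inside endosomes. Lipopolysaccharide is passed along a chain in which Lbp, a soluble protein, extracts it, Cd14 takes it up at the cell surface, and Ly96 (also called MD-2) presents it to Tlr4. Most Toll-like receptors, and the receptors of the interleukin-1 family, signal through the adaptor Myd88 to NF-kB, while Tlr3 uses a different adaptor, Ticam1. Nod1 detects fragments of bacterial cell wall in the cytosol. Fibroblasts are known to use these receptors to raise cytokines and acute phase proteins when tissue is injured or infected.

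Total counts ran from 415460 in muscle library 4 to 2397134 in lymph node library 2 (libraries are numbered as the count table numbers them). All 12 stromal markers examined, among them Pdgfra, Col1a1 and Dcn, had counts in every library. Muscle library 4 stood apart: its Pearson r to the other muscle libraries across the 10823 tested genes was 0.7 and 0.697, where muscle libraries 2 and 3 had 0.951 and lymph node pairs at least 0.951 (genes are not independent replicates). It held 384 CPM (counts scaled to library size) of summed myeloid markers, against 14.2 to 35.2 CPM elsewhere, 280 CPM of neutrophil markers, against 4.57 to 16.9 CPM, and 1874 CPM of B cell markers, against 15.4 to 260 CPM. A single gene of leukocytes, Laptm5, made up 237 CPM of its myeloid sum. The stromal marker sum of muscle library 4, 75911 CPM, lay inside the range of the other libraries (69231.5 to 108247 CPM). Pdgfra was at 651 CPM there, against 1193 to 1494 CPM elsewhere. Pdgfrb, Ly6a, Dpt, Cd34, Pdpn, Dcn and Col1a2 were also lowest in that library, and Col1a1, Col3a1, Lum and Thy1 were not. Immediate early genes, which respond within minutes to stress and to tissue dissociation, differed by tissue in every library: 28 of them summed to 3676 to 4400 CPM in muscle and to 22944 to 24599 CPM in lymph node. The test of each member is therefore given with and without muscle library 4. Muscle libraries 2 and 3, which then remain, may be the samples whose titles share a number. The p-values of that fit may then rest on technical spread in muscle. Every pair of libraries differed by more than sampling noise, with a chi-square of at least 2.55 for each degree of freedom.

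The adaptor Myd88 was 4.15-fold lower in muscle than in lymph node stromal cells, and the lipopolysaccharide-binding protein gene Lbp was 2.14-fold higher. No difference between tissues was called for the receptors Tlr2, Tlr3, Tlr4 and Nod1 or for the co-receptor Cd14. Ly96, Saa3 and Lcn2 had too few counts to enter the test. Of the 7 tested genes, 1 fell and 1 rose (quasi-likelihood F test of edgeR, two-sided, with Benjamini-Hochberg adjustment over all genes). Of all 10823 tested genes 4.32% were called, 2.86% as lower and 1.46% as higher in muscle. With muscle library 4 left out, Myd88 again fell and Lbp again rose, 6 other members were tested and not called, and 12.4% of 11246 genes were called (7.58% lower and 4.79% higher). In 4 of the 7 tested members the libraries of one tissue all lay above those of the other (Myd88, Tlr2 and Nod1 lower in muscle, Lbp higher), as in 23.6% of all tested genes (13.7% lower and 9.93% higher). With counts scaled by library total alone this held for 3 of the 7, because the Nod1 levels then overlapped.

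**Figure D1:**
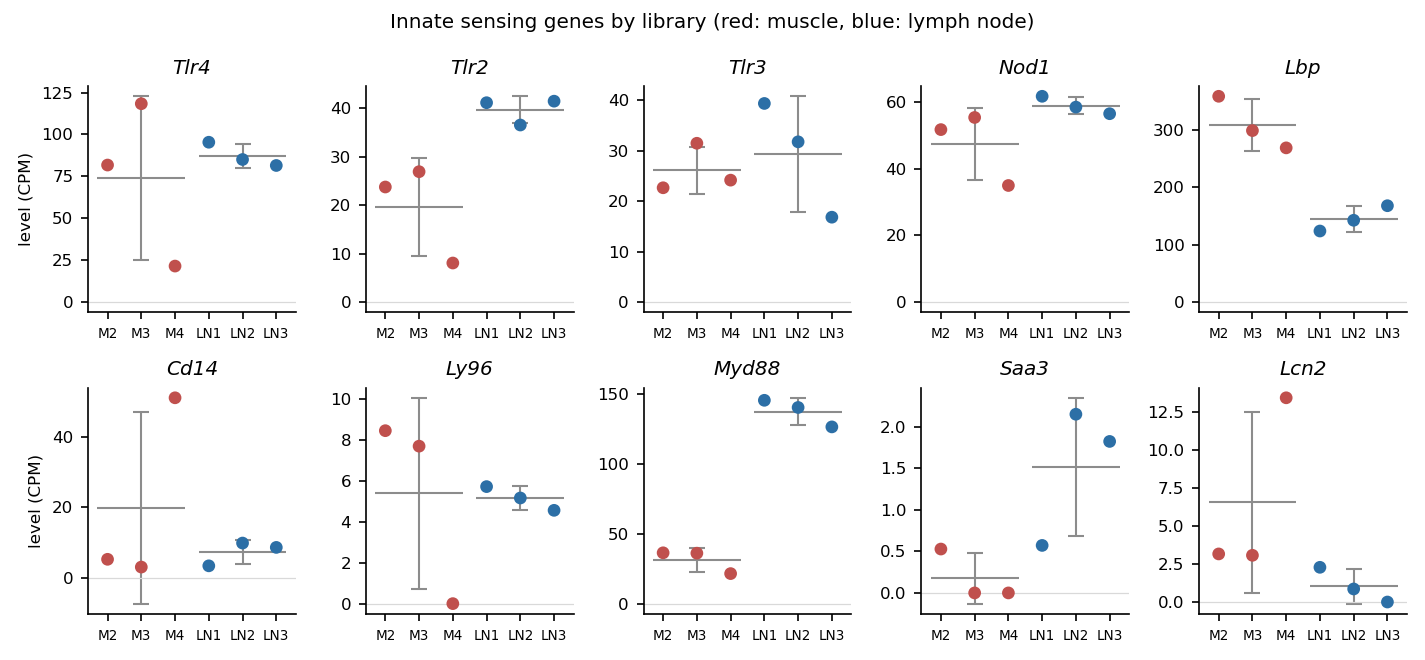
Level of each of the 10 genes (y axis, CPM scaled by the TMM library size, linear and different for each gene) in muscle libraries 2, 3 and 4 (red, M2 to M4) and lymph node libraries 1, 2 and 3 (blue, LN1 to LN3); grey lines are tissue means and grey bars their SD. Myd88 and Lbp separate the tissues in opposite directions, and Cd14 and Lcn2 reach their highest level in muscle library 4.

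Tlr4 (chromosome 4, 66827584 to 66930284, GRCm38) was the Toll-like receptor with the most counts in 5 of the 6 libraries. It measured 81.8, 118 and 21.5 CPM in muscle libraries 2, 3 and 4, and 95.4, 85.1 and 81.5 CPM in lymph node libraries 1, 2 and 3. The groups overlapped, and muscle library 4, with 8 Tlr4 counts, was far below the other muscle libraries. Means were 73.9 ± 48.9 CPM for muscle, against 87.3 ± 7.20 CPM for lymph node (SD, n = 3 each). On the log2 scale muscle minus lymph node gave -0.14 ± 0.41 (SE), with a 95% interval from -1.06 to 0.77 and an edgeR adjusted p of 0.925. It turned to 0.18 without muscle library 4, and its interval of -0.21 to 0.56 then left out a 2-fold difference in either direction (adjusted p = 0.634).

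Tlr2 (chromosome 3, 83836272 to 83841767) was lower in each muscle library than in any lymph node library, without passing the test. Its levels were 23.7, 26.9 and 8.06 CPM in muscle, against 41.1, 36.5 and 41.4 CPM in lymph node. The lowest value, in muscle library 4, rests on 3 counts. The log2 fold change was -0.86 ± 0.33 (interval -1.62 to -0.11, unadjusted p = 0.0287, edgeR adjusted p = 0.249), and -0.66 without muscle library 4 (adjusted p = 0.0729). Tlr2 was not called under any of 13 alternative settings, all of which gave a negative value.

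Tlr3 (chromosome 8, 45395665 to 45411080) varied as much within a tissue as between them. It measured 22.7, 31.5 and 24.2 CPM in muscle, against 39.4, 31.8 and 16.8 CPM in lymph node, so the muscle values lay inside the lymph node range. The log2 fold change was -0.15 ± 0.37 (interval -0.97 to 0.67, edgeR adjusted p = 0.909). It was -0.13 without muscle library 4 (interval -0.84 to 0.58, adjusted p = 0.876). Tlr3 was the one Toll-like receptor of these 3 that was not low in muscle library 4. An antisense gene model, Gm45542, overlaps its exons, and 6.68% of the 25-base words of Tlr3 also occur in other genes.

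Nod1 (chromosome 6, 54923949 to 54972612) was not called in either fit. Levels were 51.7, 55.3 and 34.9 CPM in muscle, against 61.7, 58.4 and 56.5 CPM in lymph node. Muscle library 3 and lymph node library 3 were close to each other, and with library totals alone as the scale their order turned (57.3 and 53.9 CPM). The log2 fold change was -0.26 ± 0.22 (interval -0.77 to 0.24, edgeR adjusted p = 0.675), and -0.15 without muscle library 4 (interval -0.52 to 0.23). In neither fit did the interval reach a 2-fold difference.

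**Figure D2:**
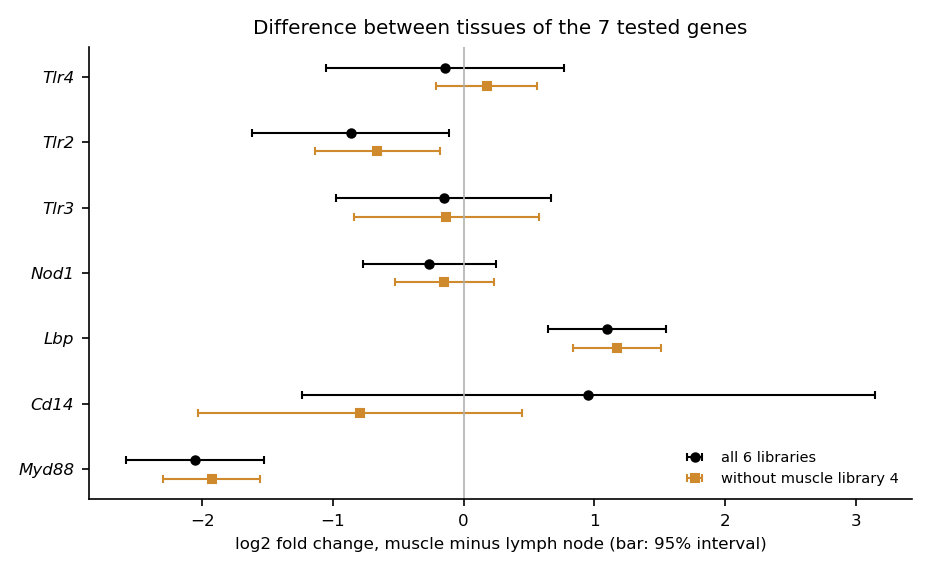
Log2 fold change, muscle minus lymph node (x axis), with its 95% interval for the 7 tested genes (y axis), from all 6 libraries (black circles) and without muscle library 4 (orange squares). Myd88 lies near -2 and Lbp near 1 in both fits, Tlr3, Tlr4 and Nod1 span 0 in both, and Cd14 changes sign when muscle library 4 is left out.

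Myd88 (chromosome 9, 119335934 to 119341411) is the adaptor that most Toll-like receptors and interleukin-1 family receptors share. Its levels were 36.4, 36.1 and 21.5 CPM in muscle, against 146, 140.5 and 127 CPM in lymph node. Every muscle value was far below every lymph node value, and muscle libraries 2 and 3 were nearly equal. Means were 31.3 ± 8.52 CPM and 138 ± 9.86 CPM (SD, n = 3 each), a log2 fold change of -2.05 ± 0.23 (interval -2.58 to -1.53, edgeR adjusted p = 0.00144). It was -1.93 ± 0.17 without muscle library 4 (adjusted p = 2.99e-06). Myd88 was called lower in muscle under all 13 alternative settings, with log2 fold changes from -2.20 to -1.93 and an adjusted p of at most 0.0196. Whether fewer cells carried the transcript or each cell carried less cannot be told apart in these bulk libraries. The immediate early sum differed between tissues in the same direction, and its part in the Myd88 difference was not tested.

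Exons of Acaa1a, a gene of fatty acid breakdown on the opposite strand, overlap the 5′ part of Myd88, and 9.65% of the 25-base words of Myd88 occur in other genes. Acaa1a itself measured 86.0, 73.0 and 26.9 CPM in muscle, against 73.1, 84.2 and 88.8 CPM in lymph node (log2 fold change -0.31 ± 0.32, edgeR adjusted p = 0.745), without the separation of tissues seen for Myd88.

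Promoter sequence was read for Myd88, the member with the largest called difference, and for Tlr2, the receptor whose levels did not overlap under either scaling. RefSeq windows (GRCm38.p6) were found for 6 of the 10 genes: Tlr2, Tlr3, Myd88, Saa3, Lcn2 and Nod1. The 250 bases before the RefSeq start of each were searched on both strands for 6 motifs: the NF-kB consensus, the interferon-stimulated response element (GAAA, any 2 bases, GAAA), the STAT site TTCNNNGAA, the C/EBP form TTNNGCAA, the AP-1 site TGANTCA and the EGR site GCGNGGGCG. The 2 sequences run 5′ to 3′ on the gene's own strand, the minus strand for both, with capitals for the bases of a match.
Myd88, chr9:119340019-119340268: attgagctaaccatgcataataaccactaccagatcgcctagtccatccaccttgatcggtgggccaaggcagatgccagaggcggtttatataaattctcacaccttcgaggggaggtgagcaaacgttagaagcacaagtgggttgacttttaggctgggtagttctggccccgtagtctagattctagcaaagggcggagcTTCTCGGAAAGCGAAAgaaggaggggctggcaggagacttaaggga
Tlr2, chr3:83841609-83841858: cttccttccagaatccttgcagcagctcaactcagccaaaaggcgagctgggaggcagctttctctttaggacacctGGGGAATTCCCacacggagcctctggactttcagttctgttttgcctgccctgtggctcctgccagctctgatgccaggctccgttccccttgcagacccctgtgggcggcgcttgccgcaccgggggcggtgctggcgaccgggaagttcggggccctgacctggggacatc

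In the Myd88 window, a STAT match from 46 to 38 bases before the start overlaps an interferon-stimulated response element match from 40 to 31 bases before it. The Tlr2 window holds a pair of overlapping NF-kB matches between 173 and 163 bases before the start. Among all 32851 RefSeq windows of the same length, 7.25% held an NF-kB match, 2.98% the interferon-stimulated response element, 7.02% the STAT site, 9.56% the C/EBP form, 6.75% the AP-1 site and 4.7% the EGR site. Over the 6 genes, NF-kB matches were found for Tlr2 and Tlr3, the interferon-stimulated response element for Myd88 and Saa3, the STAT site for Myd88 and Nod1, and the C/EBP form for Tlr3, Saa3 and Lcn2, with 0 genes holding the AP-1 or EGR letters. A match is a run of letters and not evidence of binding. The RefSeq starts of Myd88 and Tlr2 lie inside the gene spans given above, which come from GENCODE.

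Ratios of counts within a library do not depend on how libraries are scaled. There were 0.445, 0.305 and 1 Myd88 counts for each Tlr4 count in muscle libraries 2, 3 and 4, and 1.53, 1.65 and 1.55 in the lymph node libraries. The muscle values were all lower, with the ratio of muscle library 4 resting on 8 counts of each gene. The ratio of Tlr2 to Tlr4 counts was 0.29, 0.227 and 0.375 in muscle and 0.431, 0.429 and 0.508 in lymph node, again without overlap. Its value in muscle library 4 rests on 3 Tlr2 and 8 Tlr4 counts, so the separation of that library is within reach of counting error. Lbp and Myd88 were called in opposite directions, which fixes that their ratio differs between tissues. It was 9.86, 8.28 and 12.5 in muscle and 0.851, 1.01 and 1.33 in lymph node. For Lbp to Tlr4 the ratio was 4.39, 2.53 and 12.5 in muscle, against 1.3, 1.68 and 2.06 in lymph node.

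Lbp (chromosome 2, 158306493 to 158332852), known as a liver-derived plasma protein that hands lipopolysaccharide to Cd14, had the most counts of the 10 genes. It measured 359, 299 and 269 CPM in muscle, against 124, 143 and 168 CPM in lymph node. Every muscle library was above every lymph node library, muscle library 4 included. Means were 309 ± 45.7 CPM and 145 ± 22.1 CPM (SD, n = 3 each), and the log2 fold change was 1.10 ± 0.20 (interval 0.65 to 1.55, edgeR adjusted p = 0.0141). It was 1.18 ± 0.16 without muscle library 4 (adjusted p = 1.32e-04). The call was lost when any 1 of the other 5 libraries was left out (adjusted p between 0.0628 and 0.146), although the log2 fold change stayed between 0.95 and 1.19.

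Cd14, a membrane anchor for lipopolysaccharide that macrophages carry in large amounts, had a muscle level that turned on 1 library. It measured 5.27, 3.07 and 51.1 CPM in muscle, against 3.43, 9.88 and 8.65 CPM in lymph node. Muscle library 4 was far above any other library, and the remaining muscle values overlapped those of lymph node. The log2 fold change was 0.95 ± 0.97 with all libraries (interval -1.24 to 3.14, edgeR adjusted p = 0.735) and -0.79 ± 0.58 without muscle library 4 (interval -2.03 to 0.45, adjusted p = 0.469). In muscle library 4, 8 of 16 myeloid and 7 of 11 neutrophil markers also reached their highest level. Each count is worth 2.69 CPM there, and C1qb, Adgre1, Cd163, Fcer1g and Retnlg were among these on 1 or 2 counts. Laptm5, a membrane protein of leukocytes, had 88 counts there and at most 5 in any other library, and the neutrophil granule protein gene Ltf had 39 against at most 4. The myeloid markers Csf1r, Cd68, Itgam, Fcgr1, C1qa, C1qc, Cx3cr1 and Ccr2 had 0 counts in muscle library 4. So did the neutrophil markers Ly6g, Mpo, Cxcr2 and Elane. The part of other cell types in the Cd14 level of that library was not tested.

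Ly96 (chromosome 1, 16688051 to 16709611), the protein that binds lipopolysaccharide beside Tlr4, was near the detection limit. It had 16, 10 and 0 counts in muscle libraries 2, 3 and 4, and 10, 12 and 10 in lymph node. The muscle levels of 8.44 and 7.68 CPM were above the lymph node range of 4.55 to 5.71 CPM. The 0 counts of muscle library 4 allow up to 8.06 CPM at its depth, a floor of 3 counts that covers counting error only. Over all libraries the ratio of muscle to lymph node counts, scaled for depth, was 1.42, with an exact 95% binomial counting interval from 0.81 to 2.45. Without muscle library 4 Ly96 passed the filter, and its log2 fold change was 0.65 ± 0.47 (interval -0.35 to 1.65, edgeR adjusted p = 0.462). No difference was detected at this depth, and the last interval leaves out a 2-fold lower level in muscle.

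Saa3 and Lcn2, which encode an acute phase serum amyloid and the siderophore-binding protein lipocalin-2, were close to absent in both tissues. Both genes are known to be induced strongly by inflammatory signals in fibroblasts. Saa3 had 1, 0 and 0 counts in muscle and 1, 5 and 4 in lymph node, a ratio of muscle to lymph node of 0.174 with a counting interval from 0.00402 to 1.22. Lcn2 had 6, 4 and 5 counts in muscle and 4, 2 and 0 in lymph node, a ratio of 4.36 with an interval from 1.6 to 13.7. The Lcn2 ratio was 3.26 without muscle library 4 (1.07 to 10.9), which held 13.4 CPM against 3.16 and 3.07 CPM in the other muscle libraries. These intervals cover counting error only and leave out the spread between libraries. Neither gene was tested in either fit.

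Levels of different genes were compared per kilobase of exon, since longer transcripts collect more counts. Exon length was the union of all annotated exons of a gene, which can exceed the length of the transcript expressed. The order of genes below depends on that choice. In lymph node cells Myd88 came first, at 52.3 ± 3.89 CPM per kilobase (SD, n = 3), followed by Lbp at 29.4 ± 4.4. Tlr4 at 15.4 ± 1.32 and Tlr2 at 12.9 ± 0.898 came next, and Nod1 followed at 11.4 ± 0.542, with a range that overlapped that of Tlr2. Tlr3, Ly96 and Cd14 followed at 5.53 ± 2.17, 4.93 ± 0.57 and 4.14 ± 1.93 CPM per kilobase and did not differ beyond their spread. In muscle cells Lbp came first at 61.6 ± 10.3 CPM per kilobase. In muscle libraries 2 and 3, Tlr4 (14.4 and 20.7) and Myd88 (13.8 and 13.7) were next, then Nod1 (9.94 and 10.6), Tlr2 (7.69 and 8.69), Ly96 (8.07 and 7.33) and Tlr3 (4.26 and 5.89). Cd14 came after these, at 2.98 and 1.73 CPM per kilobase, but was second in muscle library 4 at 27.6.

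The Toll-like receptor family was dominated by the 3 receptors described. Tlr2, Tlr3 and Tlr4 together held 92.4% and 95.4% of the counts over 12 Toll-like receptors in muscle libraries 2 and 3, and 90.3%, 91.8% and 89.2% in lymph node libraries 1, 2 and 3. The lowest Wilson 95% bound of these 5 shares was 85.5%. In muscle library 4 their share was 34.5% (20 of 58 counts, Wilson interval 23.6% to 47.3%). There Tlr5, Tlr6, Tlr7 and Tlr8 held 65.5%, against 3.73% to 7.46% in the other libraries. Tlr5, the flagellin receptor, had 11 counts (29.6 CPM) in muscle library 4 and between 4.55 and 9.14 CPM elsewhere, with a log2 fold change of 0.51 ± 0.73 (edgeR adjusted p = 0.82) that turned to -0.43 without that library. Tlr6, which pairs with Tlr2, had 14 counts (37.6 CPM) against between 1.05 and 3.64 CPM. Tlr7, the sensor of single-stranded RNA, had 9 counts there and 0 in each of the other 5 libraries. Cd180 and Ly86, which form a receptor pair of B cells related to Tlr4 and Ly96, had 15 and 13 counts in muscle library 4 and at most 5 and 6 in any other library. Tlr7, Tlr8, Cd180 and Ly86 were singled out after their values were seen. The B cell, T cell, myeloid and neutrophil marker sums were also highest in muscle library 4, and their part in these receptor counts was not tested.

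**Figure D3:**
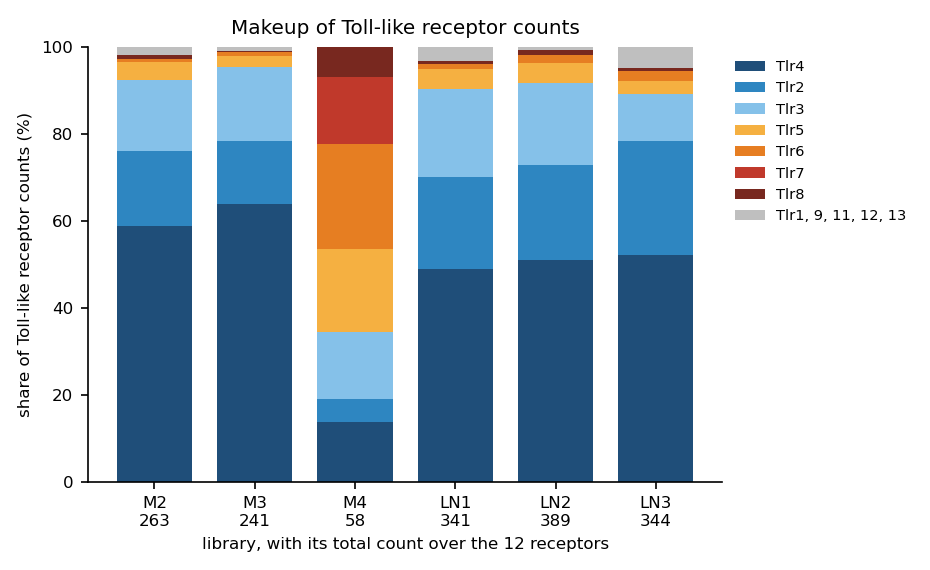
Share of the summed counts of 12 Toll-like receptors (y axis, percent) taken by each receptor in muscle libraries 2 to 4 (M2 to M4) and lymph node libraries 1 to 3 (LN1 to LN3), with the summed count under each bar. Blue shades (Tlr2, Tlr3 and Tlr4) fill 89.2% to 95.4% of 5 bars and 34.5% of the bar of muscle library 4, where 58 counts were found.

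The other genes of these pathways were read from lists of receptors, cofactors, adaptors and kinases, negative regulators, NOD-like receptors, nucleic acid sensors and acute phase proteins, which hold 99 genes beside the 10 described. Of the 61 that were tested, 13 (21.3%) fell in muscle, where 2.86% of all tested genes did, and 0 rose. The lists were chosen with earlier results of these data known, so these shares are a description and not a test. Their median log2 fold change was -0.42, where that of all tested genes was 0.02. In the higher direction 1 gene (Ikbkg) had an edgeR unadjusted p under 0.05, and DESeq2 and limma-voom called 0. Without muscle library 4, 20 (32.8%) fell, where 7.58% of all tested genes did, and 0 rose, with a median of -0.45. Of the 13 genes, Cd36, Cp, Nfkbia, Nfkbiz and Socs3 were called under all 13 alternative settings.

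A few direct partners were picked after it was known that they were not called, so they do not stand for all partners. Ticam1, the adaptor of Tlr3, had a log2 fold change of -0.53 ± 0.45 (edgeR adjusted p = 0.671, and -0.27 without muscle library 4). Tirap, which recruits Myd88 to Tlr2 and Tlr4, had one of -0.05 ± 0.30 (adjusted p = 0.971, and -0.18 without muscle library 4), and Irak4, the kinase that binds Myd88, one of -0.07 ± 0.27 (adjusted p = 0.949, and -0.02 without it). Ripk2, the kinase of Nod1, measured 5.80, 8.45 and 18.8 CPM in muscle, against 6.28, 9.02 and 7.28 CPM in lymph node. Its log2 fold change was 0.30 (adjusted p = 0.863), and -0.13 without muscle library 4. Among all 20 tested adaptors and kinases other than Myd88, 2 fell (10%, where 2.86% of all tested genes did). Ripk1, which links receptors to NF-kB, was 2.69-fold lower (adjusted p = 0.0101), and Map3k8, a kinase upstream of ERK, was 4.67-fold lower (adjusted p = 0.0252). Leaving out muscle library 4 kept both calls and leaving out any 1 of the remaining libraries lost both (adjusted p as high as 0.0663 for Ripk1 and 0.167 for Map3k8). The log2 fold changes in the fits that lost the call stayed between -1.53 and -1.31 for Ripk1 and between -2.57 and -2.21 for Map3k8.

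Of 12 tested negative regulators, 4 fell and 0 rose, where 2.86% of all tested genes fell. Without muscle library 4, 5 fell, where 7.58% of all tested genes did. Of 25 tested immediate early genes 19 were also called lower in muscle, and their part in the difference of this list was not tested. Nfkbiz is counted in this list, although it is a nuclear cofactor of NF-kB known to be needed for Lcn2 induction. It measured 19.0, 29.2 and 80.6 CPM in muscle, against 512, 383 and 439 CPM in lymph node. It was 12.2-fold lower (edgeR adjusted p = 0.00224), and its log2 fold change went from -3.61 to -4.24 without muscle library 4. Nfkbia, the inhibitor that holds NF-kB in the cytosol, was 6.94-fold lower (adjusted p = 0.00114), and Socs3, which restrains cytokine receptor signalling, was 10.4-fold lower (adjusted p = 0.00114). Socs1 was 3.59-fold lower (adjusted p = 0.0162). Its call held without muscle library 4 and was lost without any different library (adjusted p as high as 0.107), while the log2 fold change stayed between -1.95 and -1.66.

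Of 6 tested receptor cofactors other than Lbp and Cd14, 2 fell, where 2.86% of all tested genes did. The same share stands beside the counts of the NOD-like receptor and nucleic acid sensor lists below. Cd36, a lipid uptake receptor that assists Tlr2, reached 2.64, 1.54 and 2.69 CPM in muscle, from 8 counts in total, against 118, 101 and 94.7 CPM in lymph node (edgeR adjusted p = 7.23e-05). Hsp90b1, the chaperone that folds most Toll-like receptors, was 1.9-fold lower (adjusted p = 0.0437). Its call was lost with muscle library 3 or any 1 lymph node library left out (adjusted p as high as 0.208) and with library totals alone as the scale (adjusted p = 0.0932), at log2 fold changes from -1.02 to -0.84. Of 9 tested genes of the NOD-like receptor list other than Nod1, the inflammasome adaptor Pycard fell (3.22-fold lower, adjusted p = 0.00805; 0.0721 without lymph node library 2 and 0.0683 without lymph node library 3, at log2 fold changes of -1.64 and -1.56). Without muscle library 4, 3 of the 9 fell, where 7.58% of all tested genes did. These were Pycard, Casp4 and Nlrc5. Casp4, a caspase that senses lipopolysaccharide in the cytosol, had a log2 fold change of -2.51 (-1.61 with all libraries). Nlrc5, a regulator of MHC class I genes, had one of -2.17 (-0.43 with all libraries). Of 9 nucleic acid sensors, Zbp1 fell (2.56-fold lower, adjusted p = 0.0396), a call kept without muscle library 4 and lost without any different library (adjusted p as high as 0.206), at log2 fold changes from -1.45 to -1.19. Without muscle library 4, 4 of the 9 fell, where 7.58% of all tested genes did. These were Zbp1, the RNA sensors Ddx58 (-0.77) and Ifih1 (-0.80), and Trim25 (-0.96), which activates Ddx58. Casp4, Nlrc5, Ddx58, Ifih1 and Trim25 were named after their values were seen.

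Of 4 tested acute phase genes other than Lbp, 3 fell, where 2.86% of all tested genes did. Lbp, which rose, moved opposite to these 3. The copper carrier Cp was 3.78-fold lower (edgeR adjusted p = 0.00114), at 113, 89.1 and 110 CPM in muscle, against 437, 423 and 319 CPM in lymph node. The protease inhibitor Serpina3n was 2.92-fold lower (adjusted p = 0.0076; 0.0506 without lymph node library 3), and the metalloreductase Steap4 was 2.76-fold lower (adjusted p = 0.0106), which did not hold without muscle library 2 or 3 or lymph node library 1 or 2 (adjusted p as high as 0.0792, log2 fold changes from -1.44 to -1.35). Without muscle library 4 all 4 fell, where 7.58% of all tested genes did. A further 14 acute phase genes were below the filter.

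Receptors of the interleukin-1 family signal through Myd88 as well, and 4 of 7 tested genes of that list fell in muscle, where 2.86% of all tested genes did, while 0 rose (0 also at an unadjusted p under 0.05, and by DESeq2 and limma-voom). Il1r1, the signalling receptor of interleukin-1, measured 60.7, 101 and 34.9 CPM in muscle, against 296, 342 and 287 CPM in lymph node (log2 fold change -2.16 ± 0.31, edgeR adjusted p = 0.00495). Il1r1 was 4.47-fold lower, and a link to the 4.15-fold difference of Myd88 was not tested. Il1rap, the shared second chain, was 2.59-fold lower (adjusted p = 0.0131). Its call was lost with muscle library 3 or any 1 lymph node library left out (adjusted p as high as 0.104), at log2 fold changes from -1.46 to -1.30. The decoy receptor Il1r2 was 19.4-fold lower (adjusted p = 0.00112), and Il1rl2, the interleukin-36 receptor, was 4.9-fold lower (adjusted p = 0.00187). With muscle library 4 left out, 6 of the 7 fell, where 7.58% of all tested genes did. Of the 4 tested Toll-like receptors, 0 were called by edgeR, DESeq2 or limma-voom, and Tlr2 alone had an unadjusted edgeR p under 0.05.

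**Figure D4:**
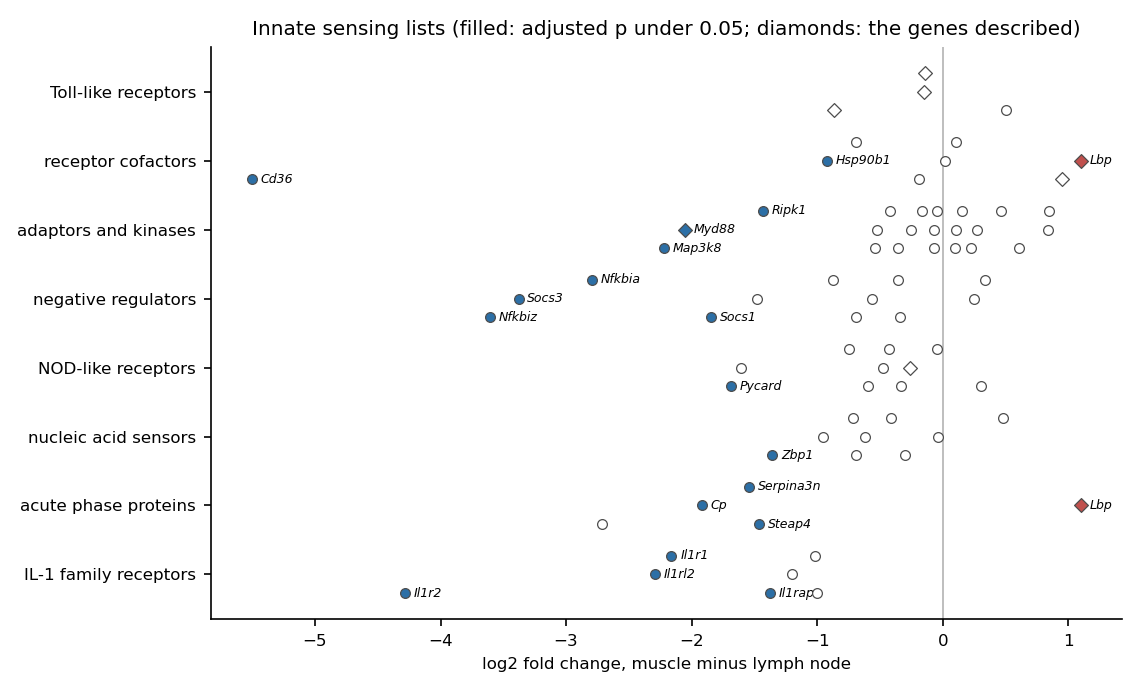
Log2 fold change, muscle minus lymph node (x axis), of each tested gene of 8 lists (rows, with a vertical offset that has no meaning). Symbols are filled where the edgeR adjusted p was under 0.05 (blue lower, red higher in muscle). Diamonds mark the 7 tested genes of the 10 described. Lbp is the filled symbol above 0, shown in the 2 lists that hold it, and the filled symbols below 0 include Myd88 and 4 interleukin-1 family receptor genes.

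The genes whose profile over the 6 libraries lay nearest to that of Myd88 were Aebp1 and Egr1, by the root mean square distance of centred log2 CPM. The 6828 candidates had a mean of at least 20 CPM, and the 10 members and the 99 other innate sensing genes were left out of them. Aebp1 and Egr1 lay at distances of 0.0796 and 0.0981, where the median gene was at 1.11. Here and for Lbp, the gap to the median follows from picking the nearest genes. Aebp1, a collagen-binding secreted protein, measured 479, 488 and 255 CPM in muscle, against 1709, 1749 and 1653 CPM in lymph node, and the immediate early transcription factor Egr1 measured 527, 620.1 and 339 CPM against 2313, 2255 and 2209 CPM. Nearest to Lbp were Zfp423, a zinc finger factor of fat cell precursors, at a distance of 0.118, and Camk2n1, an inhibitor of calmodulin-dependent kinase, at 0.129 (median gene 0.678). Zfp423 measured 68.0, 54.6 and 51.1 CPM in muscle, against 26.3, 24.9 and 36.9 CPM in lymph node, and was not called with all libraries. Camk2n1 measured 74.4, 81.5 and 69.9 CPM in muscle, against 28.6, 33.9 and 37.3 CPM in lymph node.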

How the data were processed

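Messenger RNA was measured in 6 libraries, 3 a tissue. The authors deposited raw counts per gene symbol, and the submitters' processing notes name STAR 2.5.4, featureCounts and mm10. Per the labels' protocols, cDNA was primed from poly(A) tails, amplified and sequenced as paired reads of 25 bases, with no molecular identifiers described, so intervals and floors cover counting error only. For the annotation release, the strand setting and multiply aligned reads, the choice was not given in the sources used here. Lymph node columns match sample titles. Muscle columns (2, 3, 4) carry numbers that differ from the titles and were used as 3 unlinked replicates, and 0 columns were left unused.

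Counts were fitted with edgeR 4.0.16 in R 4.3.3: filterByExpr, TMM scaling, glmQLFit and glmQLFTest on tissue, two-sided, with genes called at a Benjamini-Hochberg adjusted p below 0.05. SE is the log2 difference over the root of its F statistic, and the 95% interval uses the fit's degrees of freedom. At a handful of counts this SE understates counting error. The common biological variation (BCV) came to 0.265 with all libraries and to 0.151 without muscle library 4. Alternatives were RLE and total-count scaling, no filter, at least 10 CPM in 3 libraries, DESeq2 1.42.0, limma-voom (limma 3.58.1), leaving out each library, and summing muscle libraries 2 and 3. On simulated data for this comparison (10537 genes, 100 planted for each fold size), edgeR recovered 95% of 4-fold and 15% of 2-fold changes with 11 false calls. Changes were planted only in genes with a mean of at least 20 CPM. All 10 members matched GENCODE M21 (GRCm38), which gave positions, exon lengths and shared 25-base words. Beside the members, the text names up to 4 called genes of each list, Toll-like receptors with at least 20 counts, and the 2 nearest profiles of each called member, and gives uncalled partners of the members as background. Those partners (Ticam1, Tirap, Irak4 and Ripk2) were picked after the values were seen. The members and lists were chosen with earlier results of these data known.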

Additional observations from a re-analysis of the deposited data

How the results depend on the processing

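The counts of calls depended on which libraries entered. Leaving out 1 library gave 142 (lymph node library 2) to 1391 (muscle library 4) called genes in place of 468, and 6 to 20 other innate sensing genes lower in muscle in place of 13. The count of members higher in muscle, 1 with all libraries (Lbp), was 0 without muscle library 2 or 3 or any 1 lymph node library, and 1 without muscle library 4. With muscle libraries 2 and 3 summed it was 0, with 222 genes called in all and 7 other innate sensing genes lower. With no filter on low counts it was also 0, 945 genes were called, and 3 other innate sensing genes were higher in muscle (Cd180, Ciita and Tlr7), all of which had their highest level in muscle library 4. The 1 member lower in muscle, Myd88, was called under every alternative run. Some genes that passed no threshold changed sign. With 1 library left out, log2 fold changes ran from -0.45 to 0.091 for Tlr3 (above 0 without lymph node library 1), from -0.60 to 0.18 for Tlr4, from -0.79 to 1.61 for Cd14 and from -0.43 to 0.99 for Tlr5 (these 3 opposite in sign to the fit of all libraries only without muscle library 4). With limma-voom Cd14 was at -0.24 and Tlr5 at -0.0098. The cause was not tested. No paired analysis was possible because the muscle columns of the count table are numbered 2, 3 and 4 while the muscle titles read 2a, 2b and 3, so no muscle column could be tied to a replicate number of the labels. Depth limits what can be said of Ly96, Saa3 and Lcn2, for which 1 count is worth 0.43 to 2.69 CPM. The simulated 2-fold differences, of which 15% were recovered, were planted in genes with a mean of at least 20 CPM. They do not cover these low-count genes.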
